A study of Mus musculus with 9 samples.

Results

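The nuclear pore and nuclear transport genes described here are the protein-coding mouse genes whose symbol starts with Nup and a digit, with Kpna or Kpnb, with Ipo and a digit, or with Xpo in the GENCODE M21 annotation of the mouse build GRCm38. The rule reads names only. It finds 41 genes among the 55573 gene identifiers counted, and 39 of them had enough counts to enter the test, which covered 13328 genes. The other two, Kpna7 and Nup62cl, were close to 0: Kpna7 had 1 count in 1 naive library and none elsewhere, and Nup62cl stayed at or below 0.0776 CPM (a gene's count scaled to the size of its library) in each library. The genes of nucleoporin 58 and nucleoporin 42 carry the older names Nupl1 and Nupl2 in this annotation and so fall outside the rule.

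The nuclear pore complex is a ring of nucleoporins that spans the nuclear envelope: Y-shaped complexes coat its outer faces, an inner ring lines the opening, nucleoporins with phenylalanine-glycine repeats fill the channel, filaments reach into the cytoplasm and a basket reaches into the nucleus. Importins bring cargo in, either directly or through an importin alpha adaptor that reads the nuclear localisation signal, and exportins take proteins and some RNAs out. The small GTPase Ran gives the direction, because Ran bound to GTP in the nucleus frees import cargo and completes export complexes. In T cells this traffic carries the transcription factors of antigen receptor signalling, such as NFAT and NF-kB, into the nucleus.

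RNA libraries were made from splenic CD4+ T cells of B6 mice, a common inbred laboratory strain. Of the 9 libraries, 3 came from naive cells that were not activated, 3 from cells activated for 3 hours at 37 °C and 3 from cells activated for the same 3 hours at 39 °C, a fever-range temperature. Activation was on plates coated with antibodies to CD3 and CD28, which engage the T cell receptor complex and a costimulatory receptor. The labels name no genotype beyond the strain, and no age. They put whole spleen cells on the plates and do not say when CD4+ cells were taken, nor whether naive cells were kept in medium for as long, so culture, purification and activation cannot be told apart in the contrasts with naive cells. Whether replicate libraries are separate mice or cultures is not stated either, so a p-value here reflects only how far these samples spread, which may be technical.

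Total counts per library ran from 12647692 to 17605549. The 8 CD4 T cell genes checked were all present and summed to 4129 to 5036 CPM in naive libraries, 4834 to 5071 at 37 °C and 5016 to 5369 at 39 °C. Of these, 2 rose (Cd5 and Cd28) and 3 fell (Cd3d, Cd3g and Cd4) at 37 °C, and 1 rose and 2 fell at 39 °C, with mean Cd4 levels of 799, 611 and 614 CPM. Most markers of other cells were lower after activation. The summed level of 10 B cell genes was 766 to 916 CPM in naive libraries, 263 to 277 at 37 °C and 289 to 301 at 39 °C, with 9 of the 10 lower and 1, Fcer2a, higher in each activation contrast. A pair of CD8 genes summed to 25.8 to 36.1 CPM in naive libraries, 13.5 to 15.1 at 37 °C and 12.6 to 14.6 at 39 °C. Hbb-bs and Hba-a1, which encode globin chains of red cells, had means of 91.2 and 54.0 CPM in the naive group, 1.34 and 0.893 CPM at 37 °C and 1.47 and 1.25 CPM at 39 °C, and the platelet genes Pf4 and Ppbp were at 0 in the activated groups. Myeloid genes (7 in all) summed to 14.6 to 18.8, 8.46 to 10.1 and 7.79 to 10.8 CPM in the same order. Of the 4 tested, 3 fell and Cd68, with means of 7.28, 8.20 and 8.25 CPM, was not called. The 4 neutrophil genes summed to 1.30 to 3.30, 0.0689 to 0.155 and 0.125 to 0.238 CPM, with Ly6g at 0 in the activated groups. The 4 NK cell genes summed to 1.93 to 2.48, 0.388 to 0.643 and 0.311 to 1.12 CPM. Fewer cells of a type and less RNA per cell cannot be told apart in these bulk libraries, and the part of these markers in the results on pore and transport genes was not tested.

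Most of these genes were higher 3 hours after activation. At 37 °C, 35 of the 39 tested genes rose against naive cells and 2 fell (Nup37 and Nup210), while Nup88 and Nup210l did not pass the threshold. That is 89.7% higher, where 30.9% of all 13328 genes were higher and 31.8% lower in the same contrast (edgeR quasi-likelihood test, Benjamini-Hochberg adjusted p under 0.05). The median log2 fold change was 0.72 over the 39 genes and -0.0025 over all genes, and the rises ran from 1.18-fold (Ipo8) to 5.34-fold (Ipo4). At least 2-fold rises were seen in 8 genes (20.5%, against 10.8% of all genes): Ipo4, Ipo5, Ipo7, Kpna2, Kpna3, Xpot, Nup43 and Nup98. Every naive library was below every 37 °C library in 35 genes, where 32.7% of all genes did the same. Each tested gene had at least 36 counts in each naive library, so none entered the test through the activated groups alone.

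At 39 °C, 33 of the 39 tested genes rose against naive cells and 1 fell (Nup210), where 29.2% of all genes were higher and 29.8% lower. Nup37, Nup88, Nup210l, Nup214 and Xpo1 did not pass. The median log2 fold change was 0.61, against -0.0027 over all genes, and 6 genes rose at least 2-fold (15.4%, against 9.34% of all genes). Both activation contrasts use the same 3 naive libraries, so their values are set side by side here and are not independent of each other. The summed level of all 41 genes was 3595 ± 256 CPM in the naive group, against 5502 ± 79.6 and 5177 ± 207 CPM in the 37 °C and 39 °C groups (SD, n = 3 in each). In all that follows, ± is the SD beside a level and the standard error of the edgeR fit beside a log2 fold change.

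**Figure D1:**
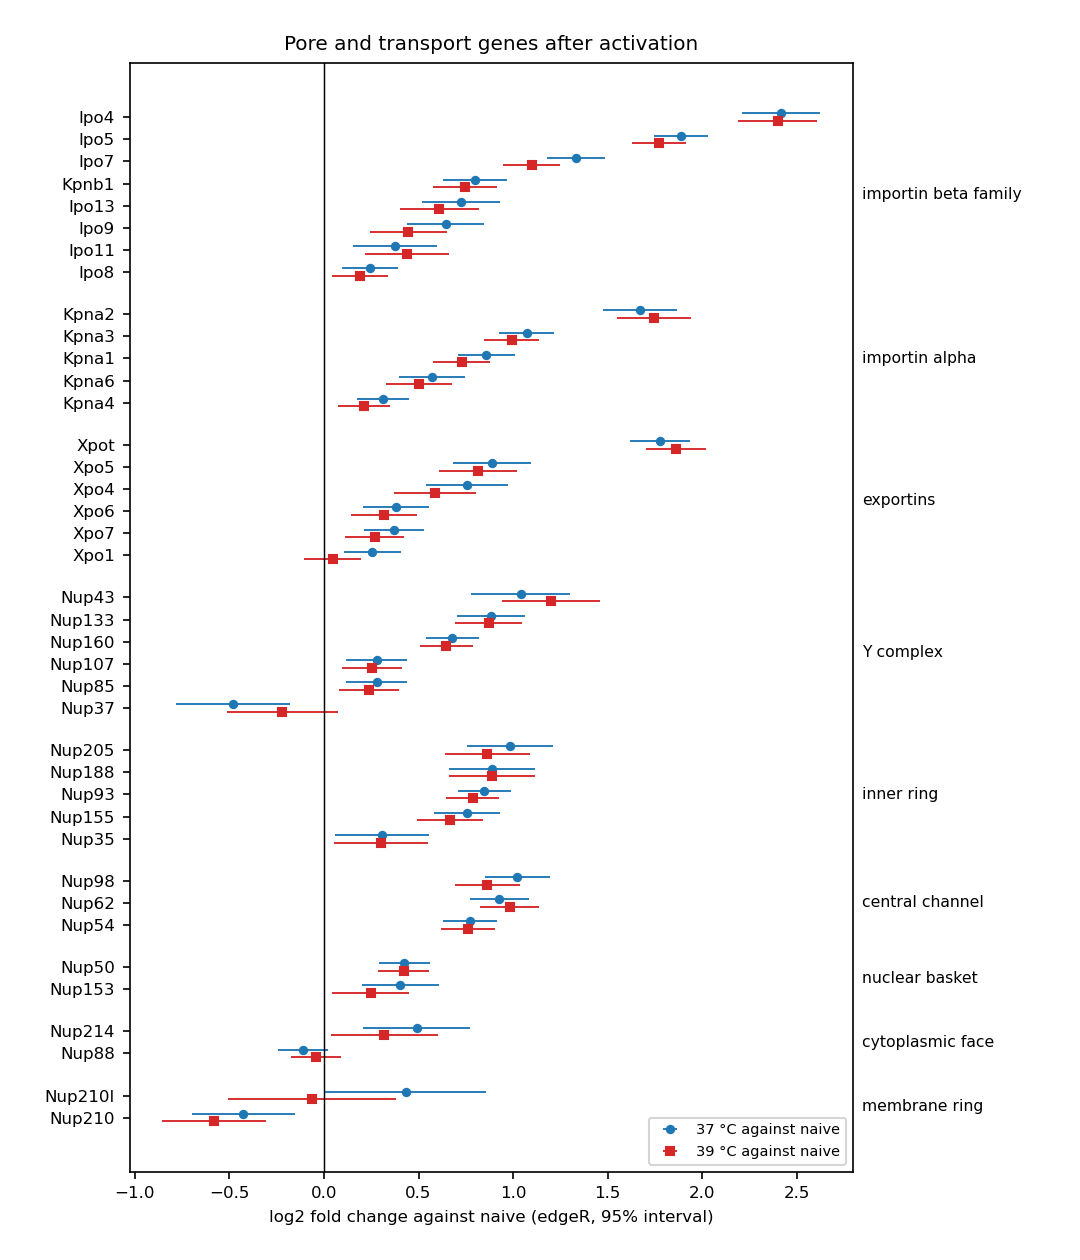
Log2 fold change of the 39 tested genes at 37 °C (circles) and at 39 °C (squares) against naive cells, grouped by role, with 95% intervals of the edgeR fit. Ipo4, Ipo5, Xpot and Kpna2 lie farthest to the right, and Nup210 and Nup37 lie left of 0 in both contrasts, Nup37 with an interval that reaches 0 at 39 °C.

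**Figure D2:**
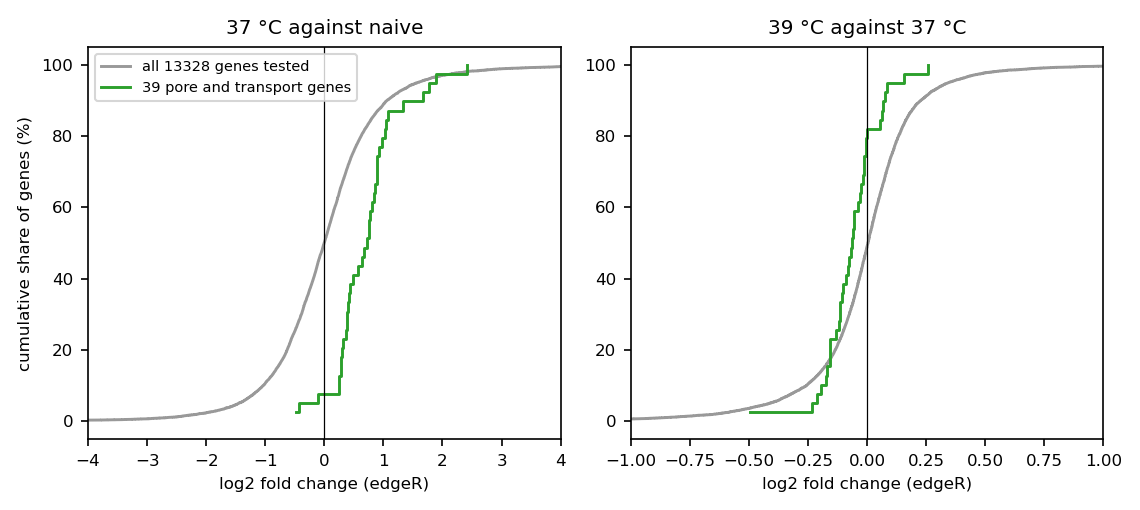
Cumulative share of genes (vertical axis, percent) against log2 fold change for the 39 tested pore and transport genes and for all 13328 genes, at 37 °C against naive (left, drawn from -4 to 4) and at 39 °C against 37 °C (right, drawn from -1 to 1). The median of the 39 genes is 0.72 in the left panel and -0.063 in the right panel, where the medians of all genes are -0.0025 and 0.0041.

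The importin beta family of import receptors holds the 2 genes with the largest rises, Ipo4 and Ipo5. All 8 of its genes within the name rule rose at 37 °C and at 39 °C. Their medians were 0.76 and 0.68 on the log2 scale. The summed level of the 8 went from 685 ± 43.1 CPM in naive cells to 1493 ± 7.54 at 37 °C and 1390 ± 39.6 at 39 °C. Transport receptors with other names are taken further below. Of 6 tested, 4 rose in each contrast and Ranbp6 fell in each (-0.34 and -0.36). Ipo4, which imports ribosomal proteins and histones (ENSMUSG00000002319, chromosome 14 from 55625400 to 55635957), was at 28.1, 21.5 and 27.4 CPM in the naive libraries, 139, 133 and 140 CPM at 37 °C and 142, 137 and 128 CPM at 39 °C. The 6 activated libraries lay far above the naive ones and the temperatures overlapped. Ipo4 rose by 2.42 ± 0.095 at 37 °C (adjusted p = 1.11e-09) and by 2.40 ± 0.095 at 39 °C (adjusted p = 1.20e-09) on the log2 scale. Of its exon bases, 55.3% are shared with the predicted gene Gm49378, which had 0 counts in each library.

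Ipo5 and Ipo7 encode carriers of ribosomal proteins as well, and Ipo7 also works with importin beta in the import of linker histone. Ipo5, named here after its values were seen, was at 102, 106 and 111 CPM in naive libraries, 399, 387 and 392 at 37 °C and 352, 360 and 375 at 39 °C, with log2 rises of 1.89 ± 0.066 and 1.77 ± 0.066 (adjusted p = 4.09e-10 and 7.43e-10). Ipo7 (ENSMUSG00000066232, chromosome 7 from 110018274 to 110056609) was at 85.7, 90.4 and 83.0 CPM in naive libraries, 209, 226 and 217 at 37 °C and 179, 179 and 197 at 39 °C. All 3 groups of Ipo7 libraries were separate, with 37 °C highest. Its log2 rises were 1.33 ± 0.069 and 1.10 ± 0.069 (adjusted p = 1.15e-08 and 6.55e-08).

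Kpnb1, importin beta itself and the partner of importin alpha (ENSMUSG00000001440, chromosome 11 from 97159714 to 97187881), was already abundant in naive cells at 228, 274 and 261 CPM and stood at 438, 446 and 444 CPM at 37 °C and 412, 424 and 444 CPM at 39 °C. All activated libraries were above all naive ones. It rose by 0.80 ± 0.077 and 0.75 ± 0.077 on the log2 scale (adjusted p = 2.49e-06 and 4.85e-06). Smaller rises were those of Ipo13 (0.72 and 0.61), which carries cargo in both directions, Ipo9 (0.64 and 0.45), a histone importer, Ipo11 (0.38 and 0.44) and Ipo8 (0.24 and 0.19). The rise of Ipo8 at 39 °C had an adjusted p of 0.030 and was lost without naive library 3 or 39 °C library 2 or 3, and with DESeq2, among other settings.

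Among the importin alpha adaptors, 5 of 5 tested genes rose at each temperature, with median log2 changes of 0.86 and 0.73. Kpna2, an adaptor best known from proliferating cells (ENSMUSG00000018362, chromosome 11 from 106988629 to 106999541), was at 22.9, 17.8 and 20.1 CPM in naive libraries, 63.6, 62.2 and 67.8 at 37 °C and 66.8, 71.0 and 66.2 at 39 °C. Naive and activated libraries were far apart, and the temperatures overlapped. Its log2 rise was 1.67 ± 0.090 at 37 °C and 1.75 ± 0.090 at 39 °C (adjusted p = 1.57e-08 and 1.18e-08). Kpna3 followed with 1.07 and 0.99, then Kpna1 with 0.86 and 0.73 and Kpna6 with 0.57 and 0.50. Kpna4, the most abundant adaptor per length in naive cells, had the smallest rises, 0.31 and 0.21, and its call at 39 °C (adjusted p = 0.0125) was lost without 39 °C library 3 and with upper-quartile scaling (0.085, adjusted p = 0.259).

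These unequal rises moved the make-up of each receptor family as the name rule draws it. It is described as shares of the family's summed CPM per kilobase of exon, since levels of different genes compare only per length. Receptors with other names are left out of these sums. In naive cells Kpna4 made up 40.4 ± 0.148% of the importin alpha level and Kpna2 12.3 ± 1.48% (SD, n = 3). At 37 °C the shares were 28.7 ± 0.154% and 22.4 ± 0.457%, and at 39 °C they were 27.9 ± 1.06% and 24.6 ± 0.780%, so that Kpna2 went from the smallest of 5 shares to next after Kpna4. In the importin beta family Kpnb1 went from 40.3 ± 1.33% to 30.4 ± 0.257% and 31.3 ± 0.448%. Ipo5 went from 18.5 ± 0.761% to 29.6 ± 0.505% and 29.2 ± 0.273%, and Ipo4 from 5.78 ± 1.09% to 13.3 ± 0.361% and 14.1 ± 1.06%. The naive and activated ranges of these 5 shares did not overlap. The full exon length of Ipo4 was used, of which 55.3% is shared with Gm49378. How reads in shared bases were counted is not stated, so the size of the Ipo4 share, and with it the others of its family, is uncertain.

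**Figure D3:**
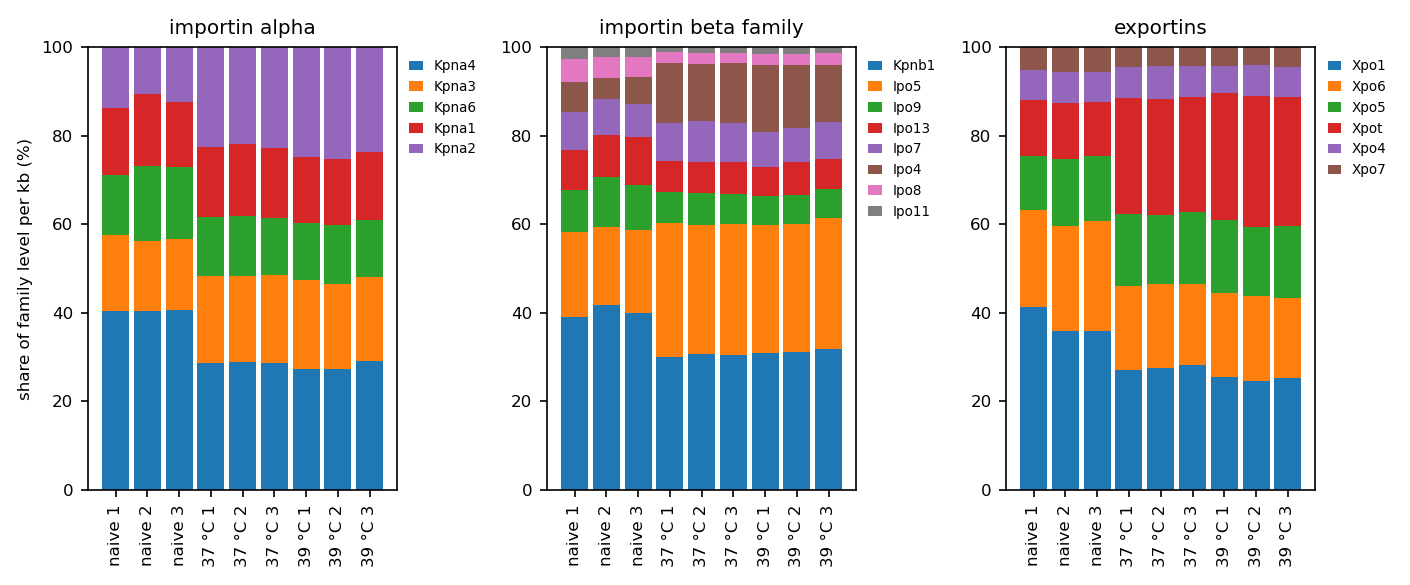
Share of each gene in the summed level per kilobase of its receptor family (percent, stacked to 100) in each of the 9 libraries. The importin alpha adaptors, the importin beta family and the exportins are drawn, each with the genes within the name rule. Kpna2, Ipo4, Ipo5 and Xpot hold larger shares in the 6 activated libraries than in the 3 naive ones, and Kpna4, Kpnb1 and Xpo1 smaller ones.

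All 6 exportins within the name rule rose at 37 °C and 5 of 6 at 39 °C, with median log2 changes of 0.57 and 0.45. Xpot, the exporter of tRNA (ENSMUSG00000034667, chromosome 10 from 121587380 to 121626332), was at 54.6, 60.1 and 54.5 CPM in naive libraries, 190, 197 and 193 at 37 °C and 190, 210 and 215 at 39 °C. Activated libraries were all more than 3-fold above the naive ones. Its log2 rise was 1.78 ± 0.073 at 37 °C and 1.86 ± 0.073 at 39 °C (adjusted p = 1.50e-09 and 1.05e-09). Xpo5, which exports microRNA precursors, rose by 0.89 and 0.81, and Xpo4 by 0.76 and 0.59. Xpo6, the exporter of actin, rose by 0.38 and 0.32, and Xpo7 by 0.37 and 0.27.

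Xpo1, the main exporter of proteins with a leucine-rich export signal (ENSMUSG00000020290, chromosome 11 from 23256041 to 23298249), moved least. It was at 214, 205 and 192 CPM in naive libraries, 235, 247 and 248 at 37 °C and 201, 207 and 223 at 39 °C. The 37 °C libraries were above all others, while the 39 °C libraries overlapped the naive ones. Xpo1 rose by 0.26 ± 0.069 at 37 °C (adjusted p = 0.00621), and its 39 °C value was 0.046 ± 0.069 (adjusted p = 0.587, 95% interval -0.10 to 0.20). Its share of the exportin level per kilobase was 37.8 ± 3.12%, 27.6 ± 0.533% and 25.1 ± 0.461% in the naive, 37 °C and 39 °C groups, while that of Xpot was 12.4 ± 0.257%, 26.1 ± 0.102% and 29.1 ± 0.533%.

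No scaffold gene of the pore rose as much as Ipo4, Ipo5, Xpot or Kpna2, but medians by role were not all below those of the receptors. At 37 °C the median log2 change was 0.48 for the Y complex, 0.85 for the inner ring and 0.93 for the tested channel genes. It was 0.76 for the importin beta family, 0.86 for importin alpha and 0.57 for exportins. In the Y complex 5 of the 6 genes within the name rule rose at each temperature. Nup43, a propeller-shaped outer subunit (ENSMUSG00000040034, chromosome 10 from 7667503 to 7678881), was at 14.6, 10.6 and 10.7 CPM in naive libraries, 23.4, 25.6 and 24.7 at 37 °C and 28.6, 27.6 and 25.9 at 39 °C. The 3 groups did not overlap, with 39 °C highest. It rose by 1.04 ± 0.12 and 1.20 ± 0.12 (adjusted p = 1.13e-05 and 3.45e-06). Nup37 encodes another small propeller of this complex (ENSMUSG00000035351, chromosome 10 from 88146992 to 88178390). It was at 13.2, 9.67 and 10.9 CPM in naive libraries, 7.43, 8.96 and 7.76 at 37 °C and 9.72, 10.3 and 8.92 at 39 °C. Naive libraries were all above the 37 °C ones and overlapped the 39 °C ones. Nup37 fell by 0.48 ± 0.14 on the log2 scale at 37 °C (adjusted p = 0.00904), and its 39 °C value was -0.22 ± 0.13 (adjusted p = 0.176). The core subunits Nup133 (0.88 and 0.87) and Nup160 (0.68 and 0.65) rose by more than Nup107 (0.28 and 0.26) and Nup85 (0.28 and 0.24), whose call at 39 °C was lost without 39 °C library 1.

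All 5 inner ring genes rose at both temperatures. Nup205, a large scaffold protein that holds channel nucleoporins in place through Nup93 (ENSMUSG00000038759, chromosome 6 from 35177421 to 35247596), was at 52.2, 71.8 and 62.6 CPM in naive libraries, 126, 126 and 118 at 37 °C and 105, 114 and 121 at 39 °C. All activated libraries were above the naive ones. Its log2 rises were 0.98 ± 0.10 and 0.86 ± 0.10 (adjusted p = 5.19e-06 and 1.70e-05). Its paralogue Nup188 (0.89 and 0.89), Nup93 (0.85 and 0.79) and Nup155 (0.75 and 0.66) were close behind. Nup35 had the smallest rises (0.31 and 0.30, adjusted p = 0.0332 and 0.0368), its naive and 37 °C libraries overlapped, and neither call held with DESeq2 (adjusted p = 0.0625 and 0.0671), nor without naive library 2 or 3, without 37 °C library 1 or 2 for the first call, or without 39 °C library 1 or 3 for the other.

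All 3 tested channel genes rose at both temperatures. Nup98, a channel nucleoporin that also takes part in RNA export (ENSMUSG00000063550, chromosome 7 from 102119398 to 102210176), was at 89.7, 106 and 98.5 CPM in naive libraries, 198, 206 and 194 at 37 °C and 168, 176 and 192 at 39 °C. The 3 groups were separate, with 37 °C highest. It rose by 1.02 ± 0.079 and 0.86 ± 0.079 (adjusted p = 3.66e-07 and 1.71e-06). Nup62 (0.93 and 0.98) and Nup54 (0.77 and 0.76), partners in the central channel, rose by similar amounts at the 2 temperatures.

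The 2 basket genes rose by less. Nup50, a mobile basket protein that helps importin alpha release its cargo (ENSMUSG00000016619, chromosome 15 from 84923411 to 84942963), was at 99.1, 100 and 104 CPM in naive libraries, 142, 131 and 135 at 37 °C and 131, 136 and 140 at 39 °C, a log2 rise of 0.42 ± 0.062 in both contrasts (adjusted p = 7.93e-05 and 9.10e-05). Nup153, which anchors the basket (ENSMUSG00000021374, chromosome 13 from 46679905 to 46727940), was at 282, 337 and 303 CPM in naive libraries, 403, 428 and 389 at 37 °C and 324, 367 and 403 at 39 °C. The 37 °C libraries were above the naive ones and 1 of the 39 °C libraries fell within the naive range. Nup153 rose by 0.40 ± 0.094 (adjusted p = 0.00257) and 0.25 ± 0.094 (adjusted p = 0.0392), and the rise at 39 °C was lost when naive library 1 or 3, 37 °C library 1 or 39 °C library 2 or 3 was left out.

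Nup214 and Nup88 form a cytoplasmic docking site for export complexes. Nup214 (ENSMUSG00000001855, chromosome 2 from 31974436 to 32053975) was at 58.4, 89.6 and 76.8 CPM in naive libraries, 107, 110 and 98.3 at 37 °C and 84.1, 94.2 and 102 at 39 °C. The naive libraries differed by more than those of the activated groups and overlapped the 39 °C ones. Nup214 rose by 0.49 ± 0.13 at 37 °C (adjusted p = 0.00575), and its 39 °C value was 0.32 ± 0.13 (adjusted p = 0.052), which passed when naive library 2 or 39 °C library 1 was left out, among other settings. Nup88 stood at -0.11 ± 0.060 at 37 °C and -0.043 ± 0.060 at 39 °C on the log2 scale (adjusted p = 0.135 and 0.560). Every 37 °C library of Nup88 was below every naive one, as in 4355 of all 13328 genes. At 37 °C it was called lower with upper-quartile scaling (-0.24, adjusted p = 0.00361) and with the exon length trend removed (-0.20, adjusted p = 0.0323). The other 17 alternatives left it uncalled at 37 °C.

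The membrane ring was the role whose main gene fell. Nup210 encodes a membrane-spanning glycoprotein of the pore that has been tied to the upkeep of peripheral CD4 T cells (ENSMUSG00000030091, chromosome 6 from 91013068 to 91116829). It was at 413, 602 and 562 CPM in naive libraries, 397, 417 and 359 at 37 °C and 321, 365 and 369 at 39 °C. Naive library 1 was within the 37 °C range, and all naive libraries were above all 39 °C ones. Nup210 fell by 0.43 ± 0.12 on the log2 scale at 37 °C (adjusted p = 0.0102) and by 0.58 ± 0.12 at 39 °C (adjusted p = 0.00163). Its paralogue Nup210l, best known from testis (ENSMUSG00000027939, chromosome 3 from 90104132 to 90212048), was at 2.48, 3.71 and 2.65 CPM in naive libraries, 3.79, 4.20 and 3.88 at 37 °C and 2.43, 3.26 and 2.79 at 39 °C. Its 37 °C libraries were above all others, but the value of 0.43 ± 0.20 did not pass (adjusted p = 0.0729), except without naive library 2 (0.62, adjusted p = 0.0145).

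**Figure D4:**
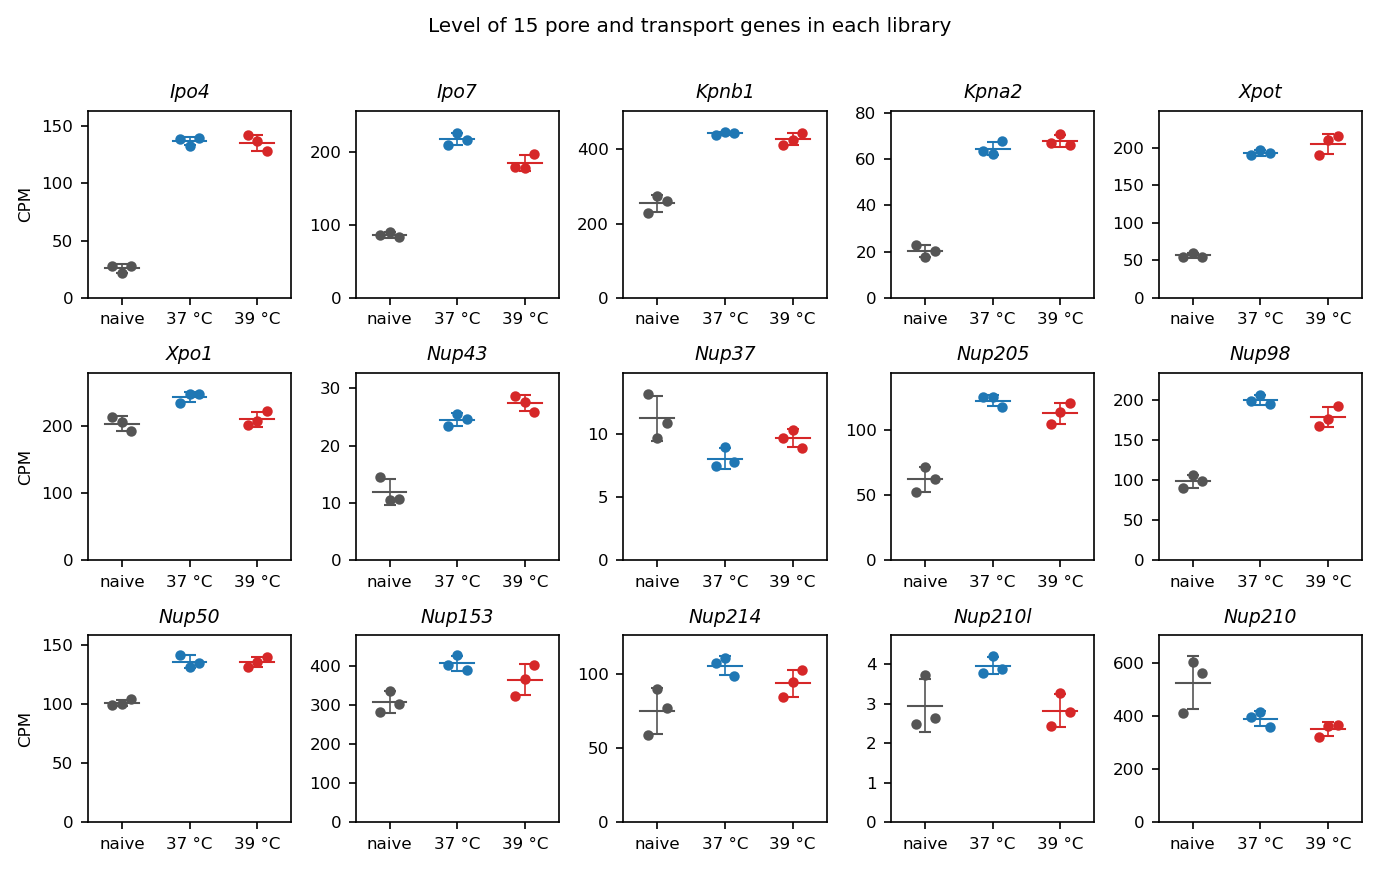
CPM of 15 pore and transport genes in each of the 9 libraries (points), with the mean and SD of each group (lines, n = 3) and a vertical axis that starts at 0 in each panel. Ipo4 reaches 133 to 140 CPM at 37 °C from 21.5 to 28.1 CPM in naive libraries, and Nup210 goes the other way.

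Per kilobase of exon, the order of levels changed with activation. Nup210 (50.2 ± 9.53 CPM per kb), Nup153 (43.8 ± 3.99) and Kpnb1 (38.6 ± 3.56) were the highest of the 39 genes in naive cells, and the gap between Nup210 and Nup153 was smaller than the SD of Nup210. At 37 °C Kpnb1 (67.2 ± 0.649) and Ipo5 (65.4 ± 1.04) were highest, followed by Nup153 (57.9 ± 2.82), Nup62 (39.6 ± 2.56) and Nup210 (37.4 ± 2.80), where the gap between Nup62 and Nup210 was within their SDs. At 39 °C Kpnb1 (64.8 ± 2.44), Ipo5 (60.4 ± 1.94) and Nup153 (52.0 ± 5.69) led again. Nup210l was the lowest tested gene in each group, at 0.515 ± 0.117, 0.692 ± 0.0383 and 0.494 ± 0.0727 CPM per kb. The median over the 39 genes was 9.02, 15.9 and 14.7 CPM per kb in the naive, 37 °C and 39 °C groups.

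Between the temperatures no pore or transport gene passed the threshold. With edgeR 0 of 39 were called in either direction, where the background was 0.135% for higher and 0.623% for lower calls. With DESeq2 0 were called, where 38 of all 14249 genes tested were higher and 113 lower. An unadjusted p under 0.05 in edgeR was reached by 3 genes, all lower at 39 °C, where 7.96% of all genes reached it: Ipo7 (-0.23 ± 0.067, adjusted p = 0.242), Xpo1 (-0.21 ± 0.069, adjusted p = 0.336) and Nup210l (-0.50 ± 0.20, adjusted p = 0.536). When only the 6 activated libraries were fitted, 3 genes were called lower at 39 °C: Ipo7 (adjusted p = 0.0284), Xpo1 (adjusted p = 0.0400) and Ipo9 (-0.20, adjusted p = 0.0475). That fit called more genes in general, with 265 lower and 136 higher of all 12751 tested. For 38 of the 39 genes the 95% interval of the difference lay within 1.5-fold in either direction. The exception was Nup210l, the gene of lowest level, whose interval ran from -0.93 to -0.061 on the log2 scale. These intervals come from the fit of all 9 libraries, so the scatter among naive libraries enters them. For Ipo9 the standard error was 0.093 in that fit and 0.049 with the 6 activated libraries alone.

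The direction of the small differences was uneven. The value at 39 °C was below that at 37 °C for 32 of the 39 genes (82.1%), where 48.9% of all genes were below, with medians of -0.063 and 0.0041 on the log2 scale. Every 39 °C library was below every 37 °C library in 10 genes (25.6%, against 10.3% of all genes): Ipo5, Ipo7, Ipo9, Ipo13, Kpna1, Kpna3, Xpo1, Xpo7, Nup98 and Nup210l. The reverse held for Nup43 and Nup88, 2 genes, where 10.7% of all genes did so. By role, the central values were -0.084 for the importin beta family, -0.079 for importin alpha, -0.089 for exportins, -0.019 for the Y complex, -0.061 for the inner ring and -0.012 for the channel.

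**Figure D5:**
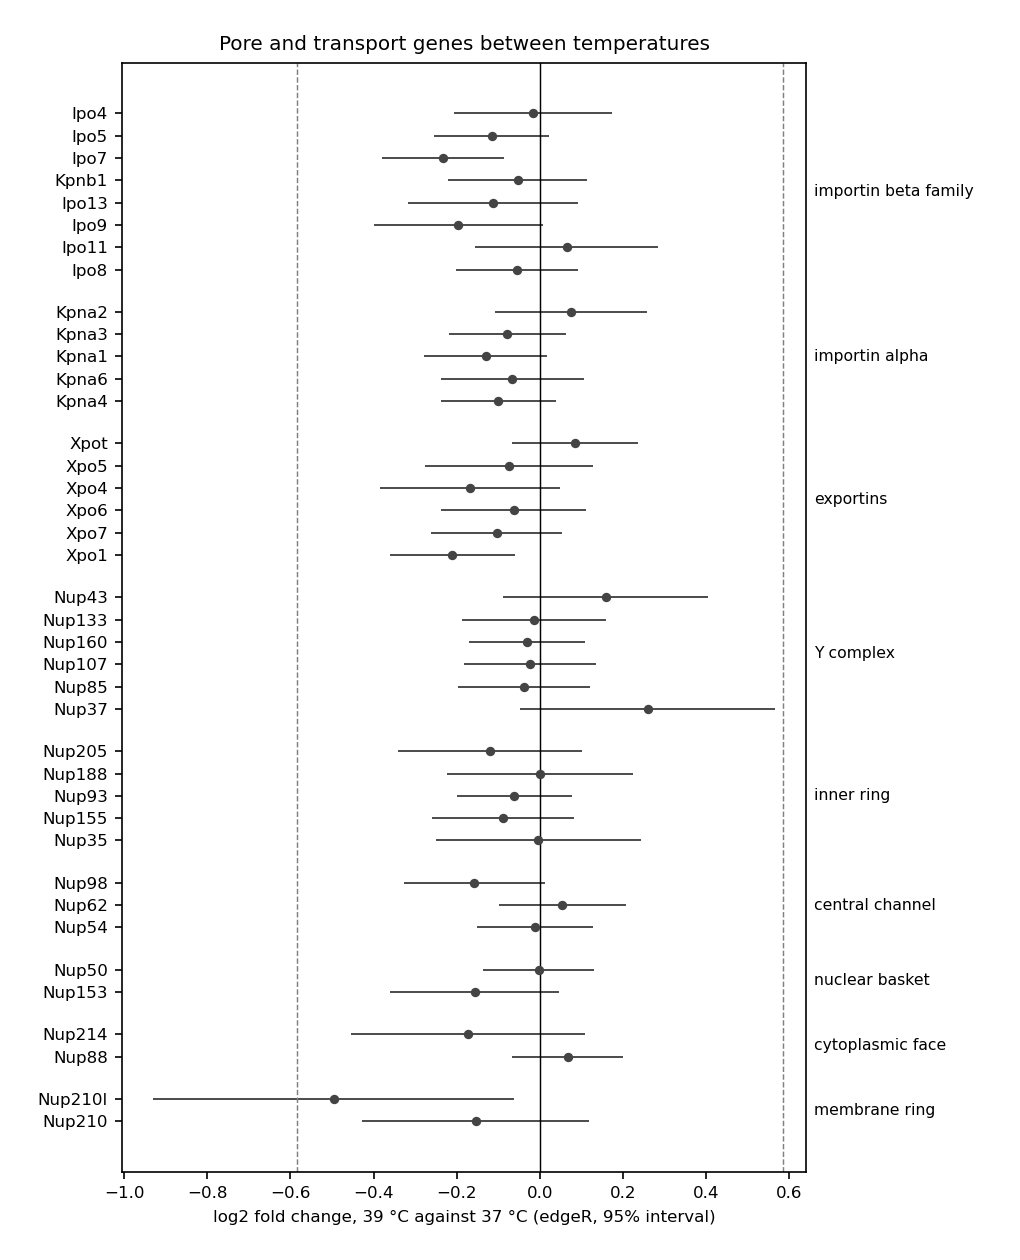
Log2 fold change at 39 °C against 37 °C for the 39 tested genes by role, with 95% intervals of the edgeR fit and dashed lines at a 1.5-fold difference in either direction. Most points lie just left of 0, and only the interval of Nup210l crosses a dashed line.

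Transcript length moved with these small differences. Across the 39 genes the log2 difference between temperatures went with exon length at a Spearman correlation of -0.566, and across 13326 genes at -0.181. This is a description over genes that share the same 6 libraries. Single libraries showed it too: the deviation of 39 °C library 1 from its group mean went with exon length at -0.614 over the 39 genes and that of 39 °C library 3 at 0.705, and 39 °C library 1 was the lowest of its group in 24 of the 39 genes. In the naive group, library 1 was at -0.49 and library 2 at 0.531. With the length trend of each library removed, a setting added after the data were seen, 0 genes were called between temperatures and the median difference was -0.041, with Ipo7 at -0.18 (adjusted p = 0.296) and Xpo1 at -0.19 (adjusted p = 0.33). Xpo6, Ipo8, Nup133, Nup160 and Nup188, below 0 between temperatures in the main fit, were then just above 0, at 0.0086 to 0.028. No gene moved from above to below 0. The activation counts with this setting were 34 higher and 3 lower (Nup37, Nup88 and Nup210) at 37 °C and 33 higher and 1 lower at 39 °C. Over all 13328 genes they were 4317 higher and 4375 lower at 37 °C and 4132 higher and 4167 lower at 39 °C.

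Most pathway genes outside the name rule rose as well. Of 35 such genes listed, 32 were tested, and 24 rose and 4 fell (Gle1, Nupl2, Ranbp6 and Nxt2) at 37 °C, where 30.9% of all genes were higher and 31.8% lower, with a median log2 fold change of 0.52. At 39 °C 24 rose and 2 fell (Gle1 and Ranbp6), where 29.2% of all genes were higher and 29.8% lower, with a median of 0.50. Between temperatures 0 were called by edgeR, where 0.135% of all genes were higher and 0.623% lower. An unadjusted p under 0.05 was reached by 2 of them (7.96% of all genes did). All 6 tested genes of the Ran cycle rose at both temperatures: the nuclear exchange factor Rcc1 (1.66 ± 0.067 and 1.70 ± 0.067), Ran itself (1.30 ± 0.11 and 1.33 ± 0.11), the cytoplasmic activating protein Rangap1 (1.26 ± 0.072 and 1.03 ± 0.072), the Ran importer Nutf2 (1.06 and 1.08), Ranbp1 (1.03 at 37 °C) and Ranbp3 (0.46 and 0.48). Their summed level with Rangrf went from 539 ± 31.2 CPM in naive cells to 1147 ± 16.8 at 37 °C and 1119 ± 51.9 at 39 °C.

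For the lists that follow, 30.9% of all genes were higher at 37 °C and 29.2% at 39 °C against naive. Of 11 tested pore proteins with other names, 7 rose at 37 °C and 8 at 39 °C. The membrane nucleoporins Ndc1 (1.18 ± 0.098 at 37 °C) and Pom121 (1.01 ± 0.16) rose, unlike Nup210, and so did the cytoplasmic filament protein Ranbp2 (0.95 ± 0.14) and the Y complex recruiter Ahctf1 (0.75 ± 0.11). The basket protein Tpr stood at 0.12 ± 0.12 (adjusted p = 0.41). Of 6 other receptors 4 rose at each temperature, among them Cse1l, which returns importin alpha to the cytoplasm (0.80 ± 0.059 at 37 °C), and Tnpo3, an importer of splicing factors (0.79 ± 0.13). Of 9 RNA export adaptors 7 rose at 37 °C and 6 at 39 °C, with the cap-binding subunit gene Ncbp2 at 1.18 ± 0.086 and the helicase gene Ddx19a at 1.02 ± 0.061 at 37 °C.

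RefSeq promoter windows (GRCm38.p6, from 250 bases before to 50 bases after the start) were at hand for 32 of the 41 genes. The letters CACGTG, the E-box read by MYC and related factors, occurred in windows of 6 of the 32 (18.8%): Ipo4, Ipo7, Xpot, Nup54, Nup93 and Nup188. Of 27025 genes with a window 8.09% had them. The letters CCAAT, on either strand, were in windows of 18 of 32 genes (56.2%, against 41.1%), the palindromic NRF1 motif in 4 (12.5%, against 1.07%: Nup50, Nup62, Nup107 and Xpo5) and the ETS motif CCGGAAGT in 3 (9.38%, against 4.31%). The E2F letters TTTCGCGC were in 1 (Ipo7, against 0.374% of all genes), TTTGGCGC in 0 (0.585%) and the heat shock element in 0 (0.662%). The shares over all genes cover each gene with a window, whether or not it was expressed here. Of the 6 genes with a window that rose at least 2-fold at 37 °C, 3 had the E-box and 3 had CCAAT. The ETS motif was in 1 of these 6, TTTCGCGC in 1 and the NRF1 motif in 0. Both strands were searched, no motif contains another, and a match describes letters and not a bound site.

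The sequence upstream of the strongest risers and of Nup210, the abundant gene that fell, is shown to set the E-box and CCAAT letters in context. Nup37, which also fell at 37 °C, and Nup88, which did not pass, have CCAAT in their windows and are not shown. Whether motifs differ between genes that rose and fell was not tested. Capitals mark CACGTG or CCAAT on either strand, and each run is written 5′ to 3′ on the strand of the gene. For Ipo4 only 30 bases around the E-box are given, which starts 14 bases after the start site, on the minus strand at chr14:55635653-55635682.
Ipo4: tgtcggagtctcCACGTGccgatcctcccc
Ipo7, plus strand, chr7:110018065-110018273, with an E-box 137 bases before the start:
Ipo7: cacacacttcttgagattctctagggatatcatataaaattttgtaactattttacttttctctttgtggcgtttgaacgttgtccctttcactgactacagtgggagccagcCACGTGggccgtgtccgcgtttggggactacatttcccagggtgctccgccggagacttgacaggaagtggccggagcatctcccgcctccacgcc
Xpot, minus strand, chr10:121626333-121626582, with an E-box 231 bases before the start:
Xpot: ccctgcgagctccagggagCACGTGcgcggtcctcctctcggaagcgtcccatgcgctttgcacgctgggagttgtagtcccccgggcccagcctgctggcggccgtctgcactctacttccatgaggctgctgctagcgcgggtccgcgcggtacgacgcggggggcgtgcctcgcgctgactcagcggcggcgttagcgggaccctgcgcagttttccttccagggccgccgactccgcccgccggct
Ipo5, plus strand, chr14:120910944-120911193, with 2 CCAAT runs (the window of its other annotated start, farther along the gene, has neither motif):
Ipo5: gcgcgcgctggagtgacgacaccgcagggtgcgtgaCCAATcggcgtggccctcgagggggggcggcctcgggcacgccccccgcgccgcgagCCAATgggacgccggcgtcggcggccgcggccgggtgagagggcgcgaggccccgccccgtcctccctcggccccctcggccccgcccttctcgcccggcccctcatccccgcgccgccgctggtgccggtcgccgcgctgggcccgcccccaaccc
Kpna2, minus strand, chr11:106999542-106999775, with 1 CCAAT run:
Kpna2: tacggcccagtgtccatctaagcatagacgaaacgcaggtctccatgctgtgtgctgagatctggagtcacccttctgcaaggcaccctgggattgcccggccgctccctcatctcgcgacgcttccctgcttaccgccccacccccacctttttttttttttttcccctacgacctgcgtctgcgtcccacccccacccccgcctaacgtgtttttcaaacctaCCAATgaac
Nup210, minus strand, chr6:91116830-91117076, with neither:
Nup210: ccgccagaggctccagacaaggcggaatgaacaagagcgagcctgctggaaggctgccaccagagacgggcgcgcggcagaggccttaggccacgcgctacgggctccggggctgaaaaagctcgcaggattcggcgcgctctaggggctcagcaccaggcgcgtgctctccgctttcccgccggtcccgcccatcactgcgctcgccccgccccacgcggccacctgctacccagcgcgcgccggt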

How the data were processed

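Each of the 9 libraries (3 naive, 3 at 37 °C and 3 at 39 °C) has 1 table of raw read counts per gene, as deposited by the authors and without normalisation. Per the labels' protocols, TRIzol was used for total RNA and a TruSeq kit for the libraries. Per the submitters' processing notes, the build was GRCm38 and the tools included HISAT2, HTSeq, FastQC and DESeq2, with neither version nor role given. Counter, annotation release and strand setting are not given in the sources used here, so overlapping antisense genes cannot be told apart. Of 55573 identifiers 55480 matched GENCODE M21, which gave symbols, coordinates and exon lengths. Of the 41 genes, 13 share any exon base with another gene and 1 (Ipo4) over 20%.

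The 13328 genes passing filterByExpr (minimum count 10, minimum total 15) were scaled by TMM, and all 9 libraries entered 1 edgeR fit (version 4.0.16, R 4.3.3) with 2-sided quasi-likelihood F tests. P-values were adjusted by Benjamini-Hochberg over these genes, with 0.05 as the threshold. Each standard error is the size of the log2 fold change over the root of F. CPM are shares of a library, so a change in RNA per cell is not measured, and precision is limited by 3 libraries a group. The fit was also run on simulated data, but the outcome is not given here and no result rests on it.

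Members and lists were chosen with earlier results of these data known. Values in each library are given for the gene with the largest rise and fall of each role at 37 °C against naive, the 3 genes of smallest p between temperatures, and Kpnb1, Kpna2, Xpo1, Nup98, Nup210 and Nup153. Alternatives were a replicate block, DESeq2 1.42.0, scaling by RLE, upper quartile or library size, other filters on low counts (any count, or 1 CPM in 3 libraries), a 0.01 threshold, a fit of only the 6 libraries compared, leaving out each library, and removal of the exon length trend. A marker gene of 1 list is not reported here.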

Additional observations from a re-analysis of the deposited data

How the results depend on the processing

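Under the 19 alternatives no call reversed. The number of genes higher was 34 to 35 at 37 °C and 29 to 33 at 39 °C against naive with any 1 library left out. Over all 13583 to 13691 genes tested in those fits it was 3723 to 4338 at 37 °C and 3539 to 4219 at 39 °C. With DESeq2 34 and 31 of the pore and transport genes were higher. Of all 18078 genes tested with DESeq2, 3912 were higher at 37 °C and 3669 at 39 °C against naive. Upper-quartile scaling moved the median of all genes to -0.14 and -0.13 and the share of calls that were higher at 39 °C against naive from 49.5% to 38.6%, and there 29 and 25 genes were higher, with 3 lower at 37 °C and 3 lower at 39 °C (Nup37, Nup88 and Nup210) against 1 with TMM. Upper-quartile scaling had 3340 of all 13328 genes higher and 5139 lower at 37 °C, and 3092 higher and 4914 lower at 39 °C. At a 0.01 threshold 1 gene was lower at 37 °C (Nup37), where 3406 of all 13328 genes were lower, and the call of Nup210 was lost. With the 6 activated libraries alone 3 genes were lower at 39 °C than at 37 °C, where 265 of all 12751 genes tested were lower. The cause of these shifts was not tested. Of the 741 values of single genes at 37 °C against naive under the alternatives, 724 stayed on their side of the threshold and 14 lost their call. At 39 °C against naive 697 stayed and 37 lost theirs, in 8 genes, with Ipo8, Nup153, Nup35 and Kpna4 most often. The labels do not say whether same-numbered libraries are paired. Deviations of same-numbered libraries correlated at -0.171 to 0.33, and 4 of 9 libraries were closest to their own number. Such deviations also went with exon length in single libraries, so these values cannot decide the question. The replicate block gave 35 higher and 2 lower at 37 °C, 34 higher and 1 lower at 39 °C, and 0 between temperatures. Over all 13328 genes it gave 4234 higher and 4285 lower at 37 °C and 4026 higher and 4039 lower at 39 °C. Between temperatures it gave 16 higher and 81 lower. A planned sum of strand-specific columns was not run, since each table has a single count column. With 3 libraries a group, differences between temperatures below those that the intervals span are not detectable.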

Other observations

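Nupl1, the name of the nucleoporin 58 gene in GENCODE M21, was at 0.0234, 0.148 and 0.0970 CPM on average in naive, 37 °C and 39 °C cells, and 55.4% of its exon bases are shared with the predicted gene Gm49336. The mean of Gm49336 was 48.5 ± 5.34 CPM in the naive group, against 67.3 ± 3.31 and 65.7 ± 2.06 CPM in the 37 °C and 39 °C groups (SD, n = 3), a log2 fold change of 0.47 ± 0.084 at 37 °C against naive (edgeR, adjusted p = 0.000365). The files do not tell which reads of Gm49336 come from the shared exons.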
